A study of Mus musculus with 16 samples.

Results

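CD115, CD16/32 and MHC class II are 3 of the 20 cell surface proteins that were counted with antibody tags on single bone marrow cells of LARRY mice, whose cells carry heritable expressed barcodes. Their tags are CD115, CD16_32 and MHC_II in the files. The 3 proteins were chosen by name, and they were examined in the cells that had 100 or more tag UMIs (unique molecular identifiers, each 1 counted tag molecule). These were 7120 of the 13550 cells of 3 libraries, or 2675 of 5478 cells in mouse 3 of the main experiment, 1342 of 3385 in mouse 4 of the main experiment and 3103 of 4687 in mouse 1 of the replicate experiment. CD16/32 was read in main mice 3 and 4. In replicate mouse 1 this tag had 1 UMI over all barcodes and 0 in cells, so that library gives no value for it.

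CD115 is the receptor for colony stimulating factor 1, encoded by Csf1r, and is carried by monocytes, macrophages and their progenitors. CD16/32 are the low-affinity receptors for immunoglobulin G; in the bone marrow they are high on granulocyte-macrophage progenitors and are used to gate them. MHC class II presents peptides to CD4 T cells and is carried by dendritic cells, B cells and activated macrophages, and at lower levels by some early progenitors. Of the monocyte and granulocyte markers listed for this work, CD115 and CD16/32 were the ones tagged in these libraries, and MHC class II was the one tagged dendritic and antigen-presenting marker.

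Each cell was also read by scTAM-seq on the Tapestri platform. There a methylation-sensitive digestion comes before targeted amplification, so a read of an amplicon in a cell marks its CpG as methylated. An amplicon's methylation level below is the percentage of cells with 1 or more reads. The files name the 663 amplicons by number alone, so no position or gene is given for them. The labels call all these samples immune cells and give the tissue as bone marrow for 6 LARRY libraries (main mice 1 to 4 and replicate mice 1 and 2), lung for 1 library of LARRY mature myeloid cells, and bone marrow with peripheral blood (BM+PB) for another. They give no age, sex, strain, sort gate or treatment, do not say when the cells were barcoded, and do not say whether the mature libraries were pooled from several mice. The median depth was 45004 to 89971 reads per cell in the 6 bone marrow libraries, 14693 in lung myeloid and 24569 in BM+PB myeloid cells. The median cell in use had 215, 212 and 301 tag UMIs in main mouse 3, main mouse 4 and replicate mouse 1. Any 2 of these 3 libraries shared 5 to 12 cell barcodes.

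CD115 and CD16/32 were faint tags and MHC class II an abundant one. CD115 had a median of 2 UMIs per cell in each of the 3 libraries, with means of 9.49, 8.40 and 15.3 in main mouse 3, main mouse 4 and replicate mouse 1. The tag was seen in 75.5%, 83.1% and 71.4% of the cells. CD16/32 had a median of 1 UMI in both main mice, means of 8.41 and 7.87, and was seen in 61.6% and 70.7% of cells. MHC class II had medians of 17, 14 and 15 UMIs and means of 45.0, 36.4 and 53.3, and was seen in 98%, 98.1% and 97.3% of cells. The means stood well above the medians for all 3 tags, since a few cells held many of the UMIs.

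Tag UMIs were also counted in barcodes that were not taken as cells. Of these, 8806, 6121 and 5557 had 100 or more tag UMIs in main mouse 3, main mouse 4 and replicate mouse 1. Whether such barcodes hold free antibody or cells was not tested. CD115 made up 2.43%, 2.31% and 2.30% of the tag UMIs of cells in main mouse 3, main mouse 4 and replicate mouse 1, against 3.89%, 3.07% and 4.33% of those in other barcodes. CD16/32 made up 2.16% in the cells of each main mouse, against 3.23% and 3.32% outside. Both tags were thus a smaller share of the UMIs in cells than outside them in every library. MHC class II made up 11.5%, 10% and 8.04% in cells against 10.2%, 9.33% and 8.20% outside, above the outside share in the main mice and below it in replicate mouse 1.

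**Figure D1:**
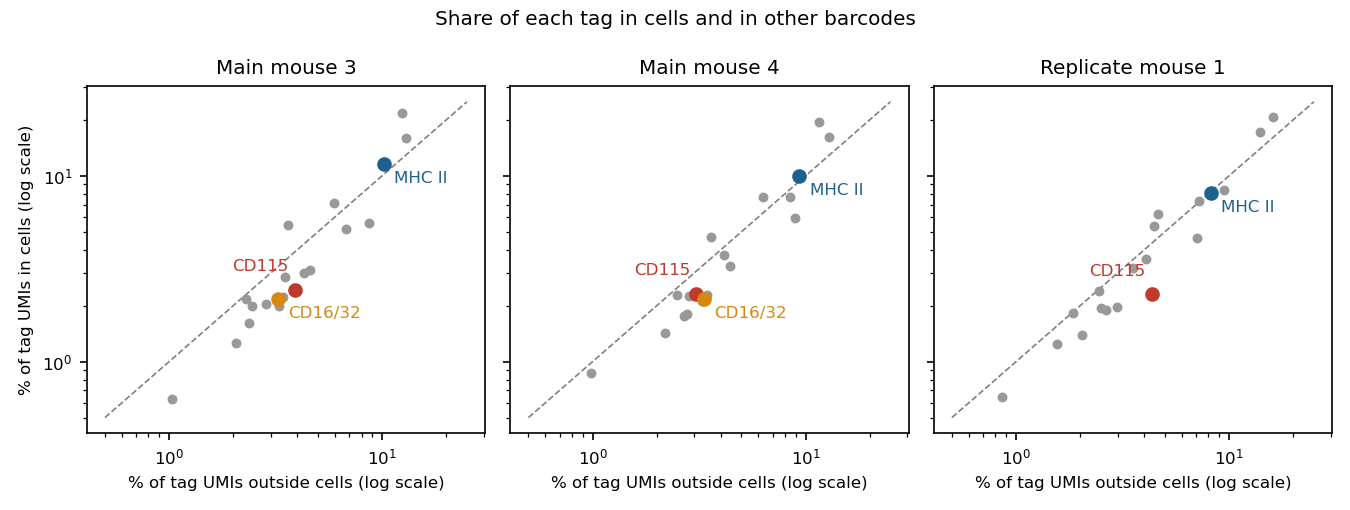
Percent of all tag UMIs taken by each of the 20 tags in cells with 100 or more tag UMIs (y axis, log scale). The x axis (log scale) is the percent in barcodes that were not taken as cells. There is 1 panel per library, and the dashed line marks equal shares. CD115 (2.30% to 2.43% in cells) and CD16/32 (2.16%) lie below the line in each library that holds them, and MHC II (8.04% to 11.5%) lies close to it.

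Cells whose tag count exceeded this outside level were few for CD115 and CD16/32. Counting a cell when its UMIs passed the upper 0.1% of a Poisson distribution at the tag's share in outside barcodes with fewer than 10 UMIs, CD115 was above that level in 3.18%, 4.69% and 7.70% of cells. CD16/32 was above it in 2.39% and 2.68%, and MHC class II in 19.7%, 14.2% and 14.5%. A share of cells with a UMI of CD115 or CD16/32 therefore cannot be read as a share of cells that express the protein. What follows uses the rank of each tag's count among the cells of a library.

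CD115 and CD16/32 rose and fell together across cells. Their partial rank correlation, given the cell's amplicon reads and its total tag UMIs, was 0.400 in the 2675 cells of main mouse 3 and 0.402 in the 1342 cells of main mouse 4. This is a description across cells, which share a library, a staining and their depth. The cells in the top 10% of both tags were 3.89% of all in main mouse 3 (104 cells, exact 95% binomial interval 3.19% to 4.69%) and 3.06% in main mouse 4 (41 cells, 2.20% to 4.12%), where independent tags would give 1%. These intervals cover only the draw of cells within a library, not the spread between mice, and no test against 1% was made.

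Tags outside the listed monocyte and granulocyte markers came about as close to the 2 receptors. CD34, a sialomucin of stem and progenitor cells, had the highest mean agreement with both, at 0.431 ± 0.0640 (SD, n = 3 libraries) for CD115 and 0.509 ± 0.0425 (SD, n = 2) for CD16/32. CD127, the interleukin 7 receptor chain of lymphoid progenitors, followed at 0.351 with CD115 and 0.470 with CD16/32. CD16/32 had a higher mean agreement with CD34, CD127, the erythroid marker Ter-119 (0.449), the mast cell receptor chain FceRIa (0.427) and the endothelial and stem cell adhesion protein ESAM (0.409) than with CD115, which came 6th of 19.

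Ter-119 was listed for this work as an erythroid marker and FceRIa as a mast cell marker, and both tags moved with the 2 receptors. The cells in the top 10% of both CD16/32 and Ter-119 were 5.01% and 4.92% of all in main mice 3 and 4, more than those in the top 10% of CD16/32 and CD115. With the rank of the summed UMIs of Ter-119 and FceRIa held fixed as well, the agreement of CD115 and CD16/32 was 0.264. In the 20% of cells with the highest CD16/32 rank, given reads and total tag UMIs, the median cell had 7 UMIs of Ter-119 in both main mice, against 1 in the 20% with the lowest. In the highest and lowest 20% by CD115 the median cell had 5 and 0 Ter-119 UMIs in main mouse 3, 5 and 1 in main mouse 4, and 2 and 0 in replicate mouse 1. In the highest and lowest 20% by MHC class II the median was 1 in every library. The part of free or nonspecifically bound antibody in the agreement of the 2 receptors was not tested.

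Both receptors had their lowest agreement with CD49f. CD49f, the integrin alpha 6 chain, had a mean partial correlation of -0.295 ± 0.0147 (SD, n = 3 libraries) with CD115 and -0.329 ± 0.0301 (SD, n = 2) with CD16/32. CD27, a receptor of the tumour necrosis factor family on progenitors and lymphocytes, came next at -0.117 and -0.207. The third lowest was the stem cell factor receptor c-Kit for CD115 (-0.0801) and the SLAM family protein CD48 for CD16/32 (-0.163).

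MHC class II had little agreement with either receptor. Its partial correlation with CD115 was -0.0715, -0.0981 and -0.0366 in main mouse 3, main mouse 4 and replicate mouse 1, low but negative in each. With CD16/32 it was -0.0448 in main mouse 3 and 0.00751 in main mouse 4. The sign depended on the covariate: without the total tag UMIs, class II had a mean correlation of 0.198 with CD115 and 0.209 with CD16/32. The tag nearest to class II was Sca-1, the stem cell antigen Ly-6A/E that separates stem cells and early progenitors from committed ones, at 0.265, 0.272 and 0.358. CD135 (Flt3), the receptor of multipotent and lymphoid-primed progenitors and of dendritic cell precursors, followed at 0.101, 0.106 and 0.267, and then CD90 at 0.0454, 0.0984 and 0.216. The lowest were CD49f (mean -0.161), the platelet integrin CD61 (-0.144) and c-Kit (-0.141).

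**Figure D2:**
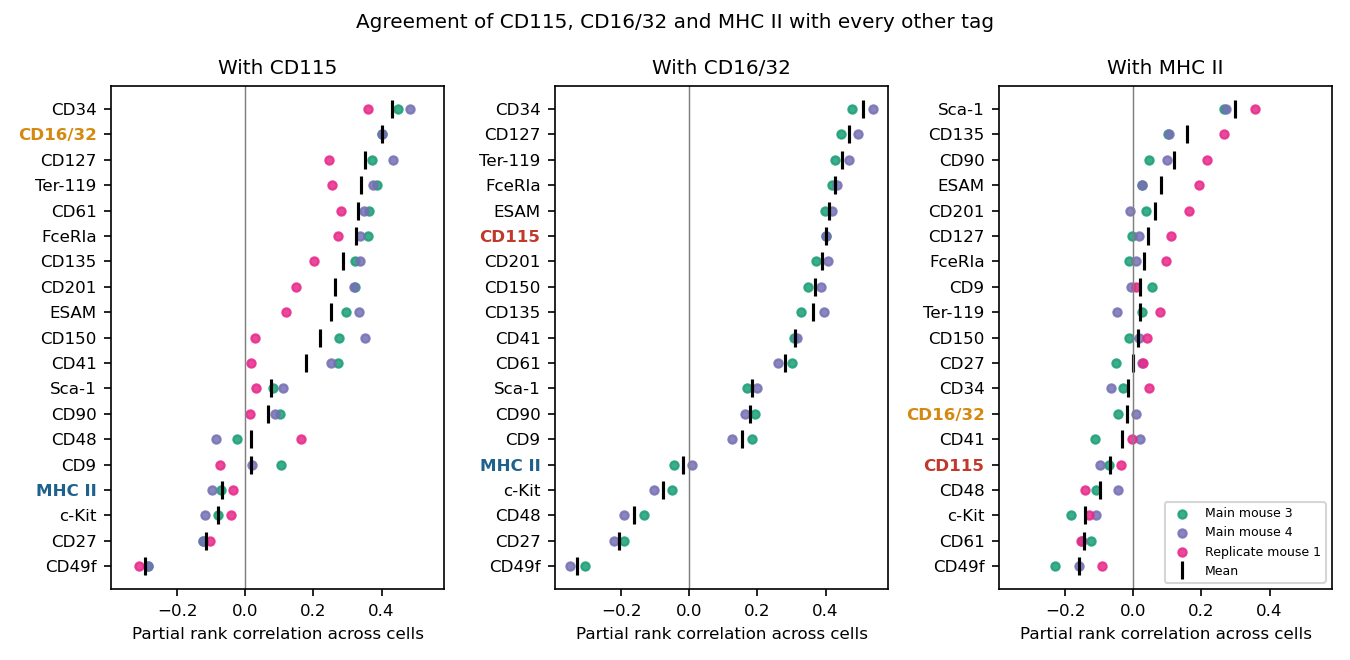
Partial rank correlation across cells of CD115, CD16/32 and MHC II with each of the other 19 tags, given reads and total tag UMIs; points are libraries and black ticks are their means. CD115 and CD16/32 lie high with CD34 (0.431 and 0.509) and low with CD49f (-0.295 and -0.329), and MHC II is highest with Sca-1 (0.298).

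Methylation was then related to each tag. Within each library the rank of a tag's UMIs was correlated with the call of each amplicon, given reads and total tag UMIs, and the values of the libraries were tested against 0 with limma over 595 amplicons and all 20 tags at a Benjamini-Hochberg adjusted p under 0.05. CD115 was associated with 114 amplicons (97 positive and 17 negative), CD16/32 with 98 (82 and 16) and MHC class II with 102 (91 and 11). These are 19.2%, 16.5% and 17.1% of those tested, against 23.5% of all amplicon and tag pairs and 24.5% of the pairs of the other 17 tags. Positive calls were 16.3%, 13.8% and 15.3% for the 3 proteins, against 17.1% of all pairs and 17.4% of the other tags' pairs. Negative calls were 2.86%, 2.69% and 1.85%, against 6.39% and 7.09%. So the 3 proteins were associated with fewer amplicons than the tags of these libraries were on the whole, with positive calls near the share of all pairs. They ranked 14th, 17th and 16th of 20, with CD90 (112 amplicons) and CD34 (95) at close counts. CD16/32 had 2 libraries where the other tags had 3, so its rank is not from a fit of the same form. Without replicate mouse 1 the counts were 165 for CD16/32, 184 for CD115 and 141 for class II. Ranks among the 20 tags are not given for that fit. All amplicons called with every library in use had the same sign in each of them. Calling by a mean tested against 0 over these same libraries favours such amplicons. The libraries come from different mice, but main mice 3 and 4 are from the same experiment and the p-values do not allow for that.

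The counts rest on few libraries and on how far limma pooled the spread. AMPL388335 had an r with CD115 of 0.251 without main mouse 3 and 0.247 without replicate mouse 1. Its limma adjusted p was 0.00301 and 6.68e-40. For CD115, 48 amplicons were called without main mouse 3, 51 without main mouse 4 and 184 without replicate mouse 1. For MHC class II the counts were 40, 47 and 141. The balance of signs also changed with the scale of the tags: after a centred log ratio, 64.8% of the CD115 calls, 60.5% of the CD16/32 calls and 66.7% of the class II calls were positive, against 85.1%, 83.7% and 89.2% on ranks. Without the total tag UMIs as a covariate, 97.3%, 96.7% and 96.2% were positive.

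The amplicon that followed CD115 most closely was AMPL388335. In the 20% of cells with the highest CD115 rank (CD115-high), 78.5%, 79.9% and 77.3% were methylated there in main mouse 3, main mouse 4 and replicate mouse 1, against 46.5%, 43.7% and 41.8% in the 20% with the lowest (CD115-low). The groups of values do not overlap, at an amplicon chosen for its r with CD115 in these same cells. Each set of CD115-high or CD115-low cells holds 268 to 621 cells. For these an exact 95% interval around a share of 50% reaches 4.01 to 6.14 points to each side. It covers only the draw of cells within a library, not the spread between mice. The mean partial r of AMPL388335 with CD115 was 0.244 (Fisher z 0.249, SE 0.0155, 3 libraries, limma adjusted p = 0.000106).

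AMPL371552 came next, with 65.8%, 64.3% and 57.3% in the CD115-high and 34.4%, 41.0% and 29.7% in the CD115-low cells (mean r 0.202, limma adjusted p = 0.000132). AMPL388483 had 72.5%, 79.9% and 76.5% against 56.1%, 51.9% and 48.7% (mean r 0.186, limma adjusted p = 0.000254). AMPL377174 was methylated in most cells and still followed the tag, with 95.1%, 93.7% and 95% against 77.8%, 77.6% and 72.9% (mean r 0.186, limma adjusted p = 0.000171). At all 4 amplicons every library had its CD115-high cells above the CD115-low cells of all 3 libraries. They were chosen for their r with CD115 in these same cells, and the share of all amplicons with such a gap was not counted.

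Fewer amplicons went the other way. AMPL388770 was methylated in 51.2%, 43.9% and 55.9% of CD115-high cells and in 62.1%, 59.3% and 77.6% of CD115-low cells (mean r -0.137, limma adjusted p = 0.000917). AMPL388455 had 42.2%, 44.6% and 48.8% against 54.0%, 60.8% and 72.6% (mean r -0.135, limma adjusted p = 0.00186). AMPL371729 (mean r -0.0979) and AMPL371741 (mean r -0.0958) completed the strongest 4, with limma adjusted p of 0.0041 and 0.0065. Without main mouse 4, AMPL371741 was not called (-0.103, limma adjusted p = 0.0505). The difference was widest in replicate mouse 1 at each of these 4 amplicons, and the bone marrow libraries themselves differed there: AMPL388770 stood at 36.4% to 47.7% in the 4 main mice and at 66.3% and 66.6% in the replicate mice. For each of the 6 bone marrow libraries, the median difference from their mean was taken over the 17 negative amplicons. These medians had an SD of 7.07 points over the libraries, against 3.08 for medians over all amplicons tested. Opposite shifts of amplicons cancel within such a median.

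CD16/32 picked out a pair of sparse amplicons. AMPL388255 was methylated in 17.2% and 17.5% of the 20% of cells highest in CD16/32 in main mice 3 and 4, and in 0.748% and 1.49% of the lowest 20% (mean r 0.223, Fisher z 0.227, SE 0.0190, 2 libraries, limma adjusted p = 0.000281). AMPL388287 had 15.9% and 21.2% against 0.748% and 1.49% (mean r 0.223, limma adjusted p = 0.000343). Over all cells of the 6 bone marrow libraries these 2 amplicons stood at 1.68% to 4.11% and 1.56% to 3.75%. They also rose with CD201 (0.226 and 0.198), FceRIa (0.216 and 0.194) and Ter-119 (0.198 and 0.186), at about the strength of CD16/32 itself.

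Other amplicons of middle methylation followed CD16/32. AMPL388335, the first amplicon of CD115, had 77.0% and 79.6% in the CD16/32-high against 46.4% and 45.9% in the CD16/32-low cells (mean r 0.197, limma adjusted p = 0.000689). AMPL365938 had 62.4% and 60.2% against 29.3% and 32.1% (mean r 0.185, limma adjusted p = 0.000621), with a mean r of 0.267 with Ter-119 and 0.264 with CD150. The strongest negative amplicons were AMPL388659, AMPL366116, AMPL371238 and AMPL388246, with mean r of -0.134, -0.116, -0.0974 and -0.0965. All 4 were methylated in over 60% of both sets of cells and lower in the CD16/32-high cells.

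Most CD16/32 calls were lost when Ter-119 and FceRIa were held fixed. With the rank of the summed UMIs of those 2 tags as a further covariate, 25 of the 82 positive and 2 of the 16 negative amplicons were still called. AMPL365938 was not (mean r 0.0608, limma adjusted p = 0.0866). Among the 4 strongest negative ones, AMPL388659, AMPL371238 and AMPL388246 were not called either, at -0.0246, -0.0263 and -0.0164 (limma adjusted p = 0.544, 0.39 and 0.739). The pair AMPL388255 and AMPL388287 was still called, at 0.135 and 0.140 (limma adjusted p = 0.00462 and 0.00362). For CD115, 71 of 97 positive and 12 of 17 negative amplicons were still called, and for MHC class II 87 of 91 and 8 of 11. All these amplicons kept their sign.

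AMPL371743 followed MHC class II most closely. It was methylated in 57.0%, 51.3% and 67.3% of the 20% of cells highest in class II in main mouse 3, main mouse 4 and replicate mouse 1, and in 34.2%, 31.7% and 38.2% of the lowest 20% (mean r 0.177, Fisher z 0.179, SE 0.0164, 3 libraries, limma adjusted p = 0.000254). AMPL371729 had 71.2%, 66.2% and 84.1% against 51.0%, 46.6% and 53.1% (mean r 0.176, limma adjusted p = 0.000966). AMPL388455 (mean r 0.156) and AMPL366093 (mean r 0.155) followed, with limma adjusted p of 0.00145 and 0.00052. AMPL366093 was sparse, with 19.8%, 20.4% and 33.7% against 6.92%, 7.09% and 12.7%. At AMPL371729 and AMPL388455 the CD115-high cells were the less methylated ones and the class II-high cells the more methylated ones.

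AMPL377174 fell most with class II. It was methylated in 72.7%, 71.0% and 68.9% of the class II-high cells and in 89.5%, 92.2% and 92.9% of the class II-low cells (mean r -0.190, limma adjusted p = 0.000348), the reverse of its pattern with CD115. AMPL366212 had 58.9%, 61.3% and 59.7% against 72.7%, 70.9% and 73.4% (mean r -0.0810, limma adjusted p = 0.00554). AMPL388762 and AMPL388483 were weaker (mean r -0.0710 and -0.0705, limma adjusted p = 0.0275 and 0.0367). At AMPL388483 the class II-high and class II-low cells of main mouse 3 were nearly level, at 61.9% and 63.2%. Its class II call was lost under 7 of the other settings, with a minimum of 200 tag UMIs (mean r -0.0275, limma adjusted p = 0.481) and without main mouse 4 (-0.0617, limma adjusted p = 0.226) among them. Without main mouse 3, AMPL366212 (-0.0727) and AMPL388762 (-0.0462) were not called (limma adjusted p = 0.0849 and 0.278), and without main mouse 4 AMPL388762 was not (-0.0877, limma adjusted p = 0.0659).

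**Figure D3:**
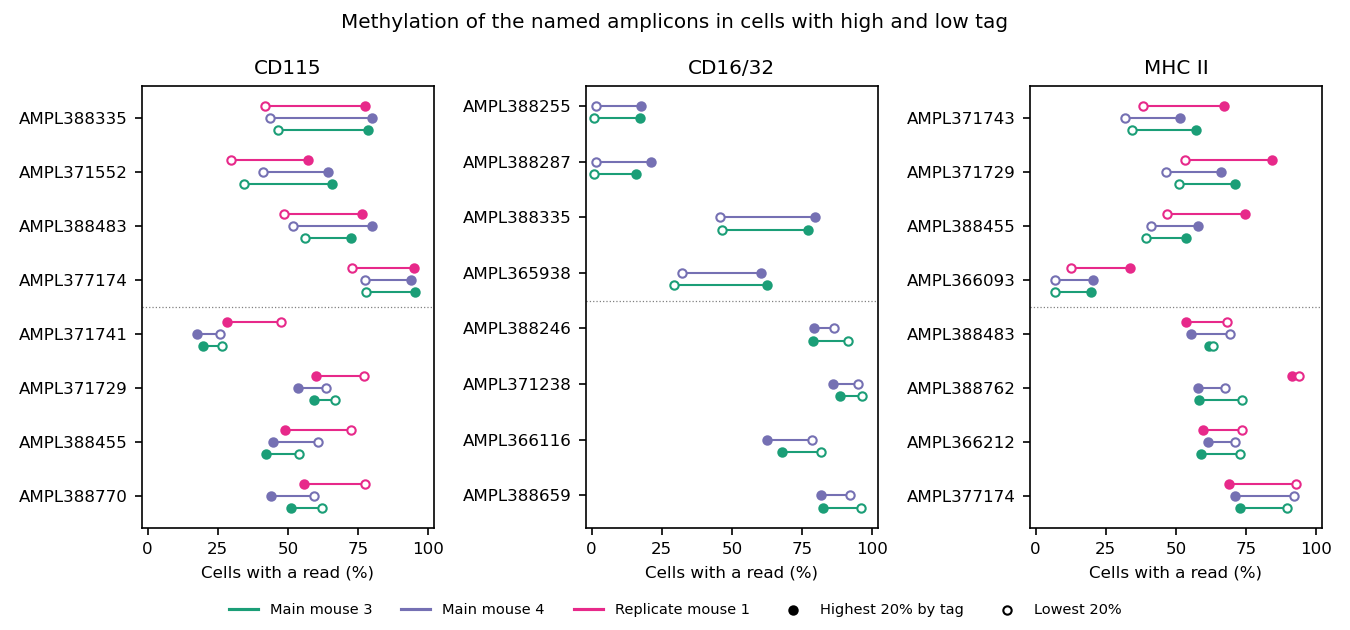
Percent of cells with a read at the 8 named amplicons of each tag, in the 20% of cells highest in the tag (filled) and the lowest 20% (open), ranked given reads and total tag UMIs; colours are libraries, and the dotted line parts positive from negative associations. AMPL388335 goes from 41.8% to 46.5% in CD115-low cells to 77.3% to 79.9% in CD115-high cells, and AMPL388255 from 0.748% and 1.49% to 17.2% and 17.5% with CD16/32.

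The amplicons of MHC class II had higher correlations with Sca-1 than with class II itself, a difference that was not tested. Over the 91 positive amplicons the median r was 0.0745 with class II, 0.151 with Sca-1 and 0.120 with ESAM, where the medians over all 595 were 0.014, 0.00699 and 0.00732. With the ranks of c-Kit and Sca-1 as covariates, 39 of the 91 positive and 7 of the 11 negative amplicons were still called, while 89 of 97 and 15 of 17 were for CD115. AMPL371743, AMPL371729, AMPL388455 and AMPL366093 were among those still called for class II, with mean r of 0.114, 0.154, 0.137 and 0.0685, as was AMPL377174 at -0.134.

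The other lists also had neighbours closer than their own tag. The 97 positive amplicons of CD115 had a median r of 0.091 with CD115, 0.119 with CD61, 0.0746 with CD127 and -0.0997 with CD49f. The 82 positive amplicons of CD16/32 had 0.1 with CD16/32, 0.135 with CD150, the SLAM family marker of long-term stem cells, 0.125 with ESAM and 0.107 with CD201. All of these correlations come from the same cells and calls.

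The lists overlapped in different ways. CD115 and CD16/32 shared 44 positive amplicons, which are 45.4% of the CD115 list and 53.7% of the CD16/32 list, and no amplicon was positive for 1 and negative for the other. CD16/32 and class II shared 32 positive amplicons (39% and 35.2%), and CD115 and class II shared 11 (11.3% and 12.1%). Over all 595 amplicons, 16.3% were positive for CD115, 13.8% for CD16/32 and 15.3% for class II. Of the 17 negative amplicons of CD115, 8 were positive for class II (47.1%), and of the 11 negative amplicons of class II, 7 were positive for CD115 (63.6%). Of those 11, 6 were positive for CD16/32 (54.5%), while 2 of the 16 negative amplicons of CD16/32 were positive for class II (12.5%).

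The difference between 2 tags was tested at each amplicon, within libraries. CD115 and MHC class II differed at 102 of 595 amplicons, with CD115 higher at 49 (8.24%) and class II higher at 53 (8.91%). AMPL377174 differed most, by 0.38 on the Fisher z scale (SE 0.0254, 3 libraries, limma adjusted p = 2.34e-05), followed by AMPL388335 at 0.319 (SE 0.0248, limma adjusted p = 4.82e-05). Class II was higher at AMPL388455, where CD115 minus class II was -0.292, and at AMPL371729, at -0.276 (limma adjusted p = 0.000731 for each). Without main mouse 3, 3 amplicons were called (103 at an unadjusted p under 0.05), against 88 without main mouse 4 and 111 without replicate mouse 1. These counts depend on how far limma pooled the spread of 2 libraries. AMPL388455, at -0.313 without main mouse 4, had a limma adjusted p of 7.53e-12 there. The named differences were as large without main mouse 3, at 0.407 for AMPL377174, 0.344 for AMPL388335, -0.334 for AMPL388455 and -0.303 for AMPL371729, but the last 2 were then not called (limma adjusted p = 0.0506 for each).

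**Figure D4:**
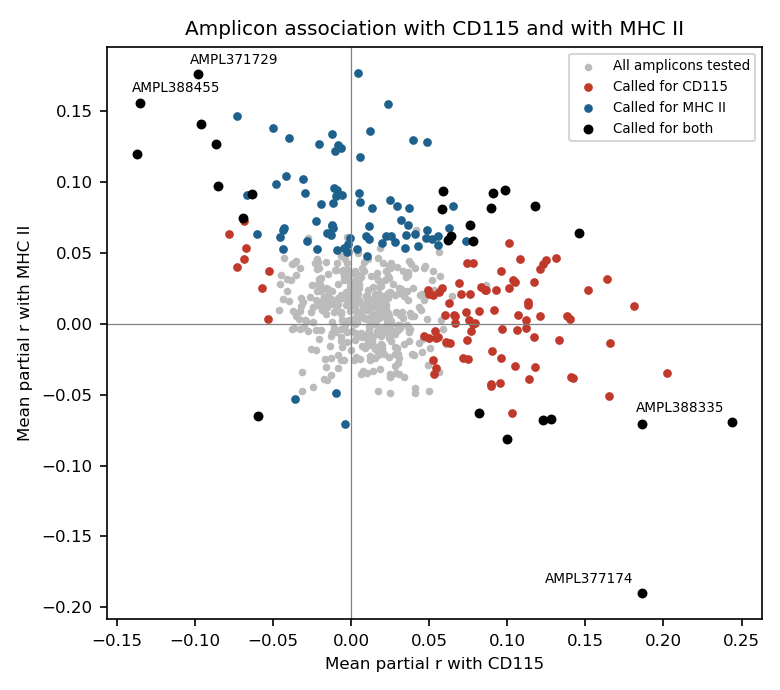
Mean partial r of each of the 595 amplicons with CD115 (x axis) and with MHC II (y axis) over 3 libraries; colours mark amplicons called for either tag or both, and labels the 2 largest differences in each direction. AMPL377174 (0.186 with CD115, -0.190 with MHC II) and AMPL388455 (-0.135 and 0.156) lie in opposite corners.

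The test between CD115 and CD16/32 called few amplicons. In the 2 libraries that hold both, 28 amplicons were called, 23 (3.87%) with CD115 higher and 5 (0.84%) with CD16/32 higher, and the count went from 0 to 117 over the settings tried. AMPL388483 (difference 0.116, SE 0.0180) and AMPL365894 (0.102, SE 0.0159) were higher with CD115, both with a limma adjusted p of 0.0179. AMPL388455 (-0.101) and AMPL388770 (-0.0894) were negative for CD115 and near 0 for CD16/32, at mean r of -0.00608 and -0.0296 (limma adjusted p of the difference 0.0197 for each).

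CD16/32 and MHC class II differed at 148 amplicons, 70 (11.8%) with CD16/32 higher and 78 (13.1%) with class II higher. AMPL377174 and AMPL388335 again led, with differences of 0.311 and 0.259, and AMPL355849 (-0.199) and AMPL388659 (-0.161) led in the other direction. With Ter-119 and FceRIa as covariate AMPL388659 was not called (-0.0457, limma adjusted p = 0.338). With 2 libraries, limma gave every amplicon the same pooled SE of 0.0254, so these calls do not rest on an amplicon's own spread and their p-values are not printed. AMPL377174 was thus high with both receptors and low with class II.

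Methylation over the whole panel had small positive correlations with CD115 and class II. The share of the intermediate amplicons (25% to 90% methylated over bone marrow libraries) that were called in a cell had a partial correlation with CD115 of 0.120, 0.0759 and 0.0527 in main mouse 3, main mouse 4 and replicate mouse 1 (limma adjusted p over the 20 tags = 0.00953). With class II it was 0.106, 0.0223 and 0.153 (limma adjusted p = 0.00435), and with CD16/32 0.0459 and 0.0105 (limma adjusted p = 0.492). CD61 (mean 0.168), Sca-1 (0.109) and CD27 (0.0992) had higher values than any of the 3. Here too limma pooled the spread over all tags. Without main mouse 3 neither CD115 nor class II was called, and without replicate mouse 1 class II was not. CD115 was also not called with a centred log ratio (0.027, limma adjusted p = 0.428), with log counts (0.0614, limma adjusted p = 0.108) or without the cells richest in amplicons or tag UMIs (0.0595, limma adjusted p = 0.0781).

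The same amplicons were then read in the mature myeloid libraries, which took no part in choosing them. Each is 1 library, so no test was made. An amplicon is counted as outside the bone marrow level when it lies beyond the lowest or highest of the 6 LARRY bone marrow libraries. The mature libraries were shallower, so each median is given again with cells thinned to 10000 reads. Shallower cells were left out of that value: 1004 of 5855 (17.1%) in lung myeloid, 0.401% in BM+PB and at most 1.58% in each bone marrow library. Over all 595 amplicons the median of mature minus bone marrow mean was -3.88 points in BM+PB and -1.10 in lung, and -0.492 and 3.79 after thinning.

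The amplicons that fell with CD115 were lower in BM+PB myeloid cells. The median difference of the 17 was -21.6 points (-16.2 when thinned). Of the 17, 13 (76.5%) lay below the bone marrow range, against 45.4% of all amplicons tested, and 10 lay 10 points or more below it, against 14.1% of all tested and 19.1% of the 403 intermediate ones among them. AMPL388770 stood at 11% in BM+PB, below its 36.4% to 66.6% in bone marrow, and AMPL376597 at 42.9%, below 78.1% to 91.5%. AMPL365802 went the other way, at 83.9% against 26.3% to 58.4%, and was also high in lung (90.3%).

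The amplicons that rose with CD115 were spread to both sides. Their median difference in BM+PB was 0.682 points (4.17 when thinned), with 34 above (35.1%) and 31 below (32%) the range, against 13.1% and 45.4% of all tested, and 13 of 97 were 10 points or more above it, against 3.03% of all tested and 4.22% of the intermediate ones. The 4 that followed CD115 most closely were all above: AMPL388335 at 82.0% against 56.0% to 65.5%, AMPL371552 at 67.4% against 36.5% to 46.9%, AMPL388483 at 80.7% against 60.6% to 65.9% and AMPL377174 at 96.6% against 84.1% to 89.0%. AMPL376917 (78.4% against 36.8% to 56.1%) and AMPL371358 (68.5% against 42.4% to 47.1%) lay farthest above the range. AMPL366000 (28.3% against 49.0% to 60.5%) and AMPL388779 (18.6% against 34.3% to 44.2%) lay farthest below it.

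The amplicons that rose with MHC class II were mostly lower in BM+PB cells. The median difference of the 91 was -10.3 points (-5.77 when thinned), and 72 (79.1%) lay below the bone marrow range, against 45.4% of all tested. AMPL388365 (48.8% against 84.6% to 96.2%) and AMPL388576 (27.2% against 57.3% to 74.2%) lay farthest below. The 11 that fell with class II had a median difference of 9.32 points (12.7 when thinned), with 5 (45.5%) above and 0 below the range, against 13.1% and 45.4% of all tested.

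At 15 amplicons CD115 and class II were called in opposite directions. Of the 7 that were positive for CD115 and negative for class II, 5 lay above the bone marrow range in BM+PB and 0 below it. Of the 8 that were negative for CD115 and positive for class II, 0 lay above it and 7 below, AMPL371729 at 30.3% against 53.9% to 72.2% and AMPL388455 at 27.7% against 45.1% to 65.6%. Over all 595 amplicons, 13.1% lay above the range in BM+PB and 45.4% below it, or 23.9% and 27.9% when thinned. The counts of these 2 sets come from amplicons already in the lists above.

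In BM+PB the positive CD16/32 list lay near all amplicons and the negative one above them. The 82 positive amplicons had a median difference of -4.34 points in BM+PB (-2.53 when thinned) with 57.3% below the bone marrow range, and the 16 negative ones 2.59 (4.86 when thinned), with 56.2% above it, against 45.4% and 13.1% of all tested. AMPL388255 and AMPL388287, the sparse pair, stood at 1.70% and 3.42% in BM+PB and at 2.97% and 3.36% in lung, within their bone marrow ranges. AMPL376917 and AMPL371552 lay farthest above the range and AMPL366060 (12.4% against 34.8% to 61.0%) farthest below it among the positive ones, and AMPL376597 farthest below among the negative ones.

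In lung myeloid cells the medians differed with and without thinning. The 17 negative amplicons of CD115 had a median difference of -8.66 points there, but -0.723 when thinned. The 91 positive amplicons of class II had -1.10 (3.25 when thinned), and the 97 positive ones of CD115 had 1.45 (7.31 when thinned). Of these 97, 3 lay 10 points or more above the bone marrow range and 5 as far below it, against 1.18% and 8.24% of all tested and 1.49% and 11.7% of the intermediate ones. AMPL371552 (57.0%) and AMPL388335 (72.3%) lay above their bone marrow ranges in lung as well. AMPL371663, negative with CD115, stood at 17.8% against 47.2% to 74.0%, and AMPL365889, positive with class II, at 18.3% against 40.6% to 64.2%.

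**Figure D5:**
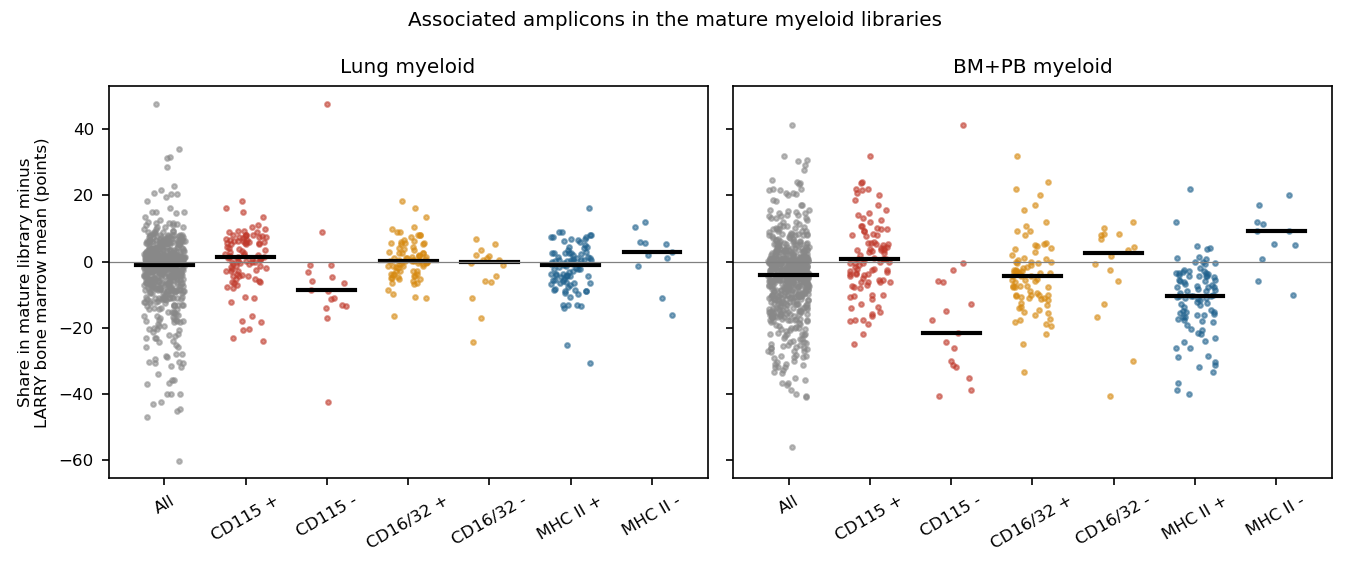
Methylation level in the lung (left) and BM+PB (right) myeloid library minus the mean of the 6 LARRY bone marrow libraries, in percentage points; each point is an amplicon, + and - mark lists called positive or negative for the tag, and black lines are medians. In BM+PB the median is -21.6 for CD115 -, -10.3 for MHC II + and 9.32 for MHC II -, against -3.88 over all 595.

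The tags were also read in the mature libraries. The tag file listed for lung myeloid cells holds the same rows as that of the lung endothelial library. Of the lung endothelial cells 6336 of 6362 had a UMI in it, and of the lung myeloid cells 1398 of 5855, so it was not used for lung myeloid cells. In BM+PB cells with 100 or more tag UMIs, CD115 had a mean of 7.54 UMIs, beside 2.98 to 6.26 for the 6 isotype controls, and made up 2.04% of tag UMIs against 2.49% outside cells. CD16/32 was seen in 17.2% of those cells and made up 0.212% of tag UMIs against 0.109% outside cells, and the file holds no MHC class II tag.

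Within the 3902 BM+PB cells in use, the signs of the CD115 associations were divided. Of its 97 positive amplicons 46 were positive there and of its 17 negative ones 10 were negative, where 47.6% of all 595 kept their sign. For CD16/32, 78 of the 82 positive and 9 of the 16 negative amplicons kept their sign, but 79.2% of all amplicons were positive with this tag in BM+PB. AMPL388255 and AMPL388287 had an r of 0.129 and 0.101 with CD16/32 there, within a range of -0.0407 to 0.153 over all amplicons.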

How the data were processed

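The deposited files hold counts: reads per amplicon and cell, and UMI counts per antibody tag and barcode, as the authors made them. The genome build is mm10, per the submitters' processing notes; the software behind the counts is not given in the sources used here. Barcodes of the amplicon tables were taken as cells. No doublet caller was run.

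Ranks of a tag's UMIs were correlated within each library with amplicon calls (1 or more reads) after regression on the ranks of reads and of total tag UMIs. Amplicons with a mean share of 2% to 98% were tested (595 of 663). Fisher z values of the libraries were tested against 0 with limma 3.58.1 (R 4.3.3), with Benjamini-Hochberg adjustment over all 11900 pairs. Differences between tags had 1 limma fit per pair of tags. CD16/32 had 2 libraries and 1 residual degree of freedom beside the pooled ones. Other steps used Python 3.11.15. The procedure was tested on simulated data.

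The 3 proteins and marker lists were chosen with earlier results of these data known. For each tag the 4 called amplicons with the highest and the 4 with the lowest mean r are named, with the 2 farthest above and below the bone marrow range in each mature library (only some are described) and the 2 largest differences per pair of tags and direction. These analyses were chosen after the files were seen: the Ter-119 and FceRIa covariate, the comparison with sparse outside barcodes, the tag pairs other than those among the 3 proteins in the top 10%, the sets of the highest and lowest 20% of cells, the isotype comparison, the counts over intermediate amplicons and the depth of 10000 reads. In all, 16 other settings of the association fit were run beside those reported, of which 3 leave out a library and 1, the Ter-119 and FceRIa covariate, was added late. The comparison with the mature libraries had 4 others (calls of 2 and 5 reads, thinning, and the range of the 3 tag libraries alone).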

Additional observations from a re-analysis of the deposited data

Results flagged for a closer look

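AMPL388246, negative with CD16/32, was methylated in 83.3% of cells in main mouse 1, apart from the 78.3% to 78.5% of the other 3 main mice. It was the 1 such case among 19 amplicons examined, and chance gives about 1 in 20.

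In 3 of the 35 agreements measured in 3 libraries, replicate mouse 1 had the opposite sign to both main mice; these differences were not tested. The partial correlation of CD115 with CD48 was 0.163 in replicate mouse 1, against -0.0257 and -0.0864 in main mice 3 and 4. That of CD115 with CD9 was -0.0737, against 0.104 and 0.0205. That of MHC class II with CD34 was 0.0451, against -0.0309 and -0.0645.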

How the results depend on the processing

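Of the comparisons under other settings, 145 values stayed, 58 moved, 6 fell below the threshold and 1 rose above it. Another 3 reversed, among them the agreement of CD115 and class II, which had no test. A count stayed when it lay within a fixed ratio of the one reported, so 82 and 149 amplicons stayed for CD115, against 114. A description stayed when it lay within the SD over libraries, and a tested value when it kept its sign and its side of the threshold. Among named amplicons 491 stayed and 37 fell below the threshold. The cause of each was not tested, except where fewer libraries were used. Leaving out counts, 12 values had the other sign than the one reported. Beside those given below they were 0.00751 for the agreement of CD16/32 and class II without main mouse 3; in lung, -0.813 for CD16/32 positive amplicons with calls of 5 reads, 0.153 for CD16/32 negative with calls of 2, 0.286 for CD16/32 negative against the 3 tag libraries and 3.25 for class II positive when thinned; and in BM+PB -0.839 for CD115 positive with calls of 5 reads. With 2 or 3 libraries, precision is set mainly by their number and by how far limma pooled the spread. Leaving out 1 library gave 48 to 184 amplicons for CD115, 40 to 141 for MHC class II, 165 for CD16/32 (without replicate mouse 1, which changes only the pooled spread and the adjustment for this tag), and 3 to 111 differences of CD115 and class II; the methylated share per cell ranged from 0.0643 to 0.0981 for CD115 and from 0.064 to 0.13 for class II.

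For CD16/32, 27 amplicons were called with Ter-119 and FceRIa as covariate (chosen after seeing the data), 56 without the cells richest in amplicons or tag UMIs and 59 with no minimum of tag UMIs. For class II, 57 were called with c-Kit and Sca-1 as covariates, 58 with a minimum of 200 tag UMIs and 184 with no total tag UMIs.

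The agreement of CD115 and CD16/32 (SD 0.00136 over 2 libraries) was 0.264 with Ter-119 and FceRIa, 0.388 with c-Kit and Sca-1, 0.361 without the richest cells, 0.276 with a centred log ratio, 0.552 with log counts, 0.502 with a minimum of 200 UMIs, 0.246 with no minimum, 0.485 with no total, 0.353 thinned to 100 UMIs and 0.412 with the total of the other tags. That of CD115 and class II was -0.104 with c-Kit and Sca-1, -0.291 with a centred log ratio, -0.164 with log counts, -0.101 thinned and 0.198 with no total. That of CD16/32 and class II was -0.0795, -0.306, -0.0974, -0.0707 and 0.209 in the same order.

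The methylated share per cell was not called for CD115 without the richest cells (0.0595), with a centred log ratio (0.027) or with log counts (0.0614). For CD16/32 it was -0.0499 with a centred log ratio, -0.011 with log counts and 0.102, called, with no total.

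CD115 and CD16/32 differed at 54 amplicons with Ter-119 and FceRIa, 0 with c-Kit and Sca-1 (limma; 120 at an unadjusted p under 0.05), 72 and 84 with calls of 2 and 5 reads, 70 without the richest cells, 96 with a centred log ratio, 117 with log counts, 0 with no minimum (limma; 140 unadjusted), 80 with no total, 62 thinned and 65 with the total of the other tags. CD115 and class II differed at 62 with a minimum of 200 UMIs; CD16/32 and class II at 62 with Ter-119 and FceRIa and 93 with calls of 5 reads.

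In lung, thinned to 10000 reads, the median differences were 7.31 for CD115 positive, -0.723 for CD115 negative, 3.83 for CD16/32 positive, 4.33 for CD16/32 negative and 7.40 for class II negative amplicons; with calls of 5 reads they were -0.835 for CD115 positive and -3.94 for CD16/32 negative. In BM+PB they were 4.17 for CD115 positive, 4.86 for CD16/32 negative and 12.7 for class II negative when thinned, 0.894 for CD16/32 negative with calls of 5 reads and 11.7 for class II negative with calls of 2. No paired analysis was possible because no comparison tests groups that share replicate numbers: tags are compared within libraries.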
